A study of Mus musculus with 6 samples.

Results

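The Reelin pathway was followed through 9 genes: the secreted ligand Reln, its receptors Vldlr and Lrp8, the adaptor Dab1, the kinase Fyn, the adaptors Crk and Crkl, and the motor regulators Pafah1b1 and Ndel1. They were chosen by name, as the rows of the deposited table whose gene column holds 1 of these symbols. All 9 were found, each as a single locus with 1 symbol, among 23793 loci. RNA came from the cerebellum of mice at postnatal day 0. The 3 control libraries had the genotype Zeb2 f/+; hGFAP-cre and the 3 conditional knockout (cKO) libraries the genotype Zeb2 f/f; hGFAP-cre. Both groups thus carried the Cre transgene, driven by the human GFAP promoter that is active in radial glia and neural progenitors, and the controls carried 1 floxed allele of Zeb2, a zinc finger transcription factor. The labels give no strain or sex, nor whether the libraries are from different animals; p-values therefore cover only the spread between these libraries, which may be technical. The series asks how Zeb2 acts in Bergmann glia, radial astrocytes whose fibres guide migrating neurons, and in the layout of the cerebellum, and the Reelin pathway is a known organiser of that layout.

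Reelin is a large extracellular glycoprotein. It binds the lipoprotein receptors Vldlr and Lrp8 (also called ApoER2), which brings about tyrosine phosphorylation of Dab1 by the Src family kinases Fyn and Src. Phosphorylated Dab1 recruits Crk and Crkl, and the pathway meets the machinery of nuclear movement at LIS1, the product of Pafah1b1, and its dynein-binding partner Ndel1. In the cerebellum Reelin is made by the granule neuron lineage and by early nuclear neurons, and Purkinje cells receive it. Mice without Reelin, without Dab1 or without both receptors have a small cerebellum in which most Purkinje cells stay in deep clusters.

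Sequences before the start sites of the 9 genes were examined because Zeb2 is known to bind DNA at the letters CACCT, often at a pair of them. All 9 genes matched RefSeq start sites (GRCm38.p6), with 13 start sites in all. In the 250 bases before the start, CACCT was found on either strand at 7 of the 13 start sites, against 46% of the 32851 start sites in the whole table. CACCTG, the longer form, which overlaps CACCT, was found at 4 of 13, against 17.2%. These 4 start sites belonged to 2 of the 9 genes, Lrp8 and Dab1. Matches to CACCT belonged to 5 of the 9 genes (Reln, Vldlr, Lrp8, Dab1 and Ndel1), and 4 genes had none. The matched 250 bases of Vldlr and Ndel1 lay inside the annotated gene, with 179 and 0 of them in exons of GENCODE M21. The 250 bases before the outer start site of Vldlr held 0 matches. At 3 start sites there were 2 or more matches, as at 13.8% of all start sites. Those 3 stretches are shown because they hold the paired letters and belong to the ligand, a receptor and the adaptor of the pathway. Capitals mark CACCT or its reverse complement AGGTG, and each stretch runs 5′ to 3′ on the gene's strand.
Reln, chr5:22344706-22344955, minus strand, directly before the gene: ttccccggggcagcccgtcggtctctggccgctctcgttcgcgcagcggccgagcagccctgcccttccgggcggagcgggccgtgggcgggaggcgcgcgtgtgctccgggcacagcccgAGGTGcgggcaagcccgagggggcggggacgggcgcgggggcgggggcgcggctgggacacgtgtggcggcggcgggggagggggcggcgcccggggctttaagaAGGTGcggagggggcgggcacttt
Lrp8, chr4:107822911-107823160, plus strand, inside the annotated gene and outside its exons: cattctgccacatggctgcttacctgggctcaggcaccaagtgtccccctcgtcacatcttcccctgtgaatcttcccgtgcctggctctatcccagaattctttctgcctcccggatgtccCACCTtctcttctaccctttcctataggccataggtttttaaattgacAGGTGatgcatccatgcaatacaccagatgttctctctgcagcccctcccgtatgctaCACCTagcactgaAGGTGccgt
Dab1, chr4:103619250-103619499, plus strand, with 141 of its 250 bases in exons of GENCODE M21 and 0 in an annotated UTR: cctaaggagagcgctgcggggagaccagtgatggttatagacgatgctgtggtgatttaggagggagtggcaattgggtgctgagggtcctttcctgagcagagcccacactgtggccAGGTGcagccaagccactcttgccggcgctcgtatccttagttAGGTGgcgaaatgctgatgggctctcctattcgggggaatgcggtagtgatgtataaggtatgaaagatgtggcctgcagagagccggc
The first bases of the matches lay 129 and 24 bases before the RefSeq start of Reln, 128, 80, 22 and 9 before the start of Lrp8 shown here, and 132 and 89 before that of Dab1. GENCODE M21 starts Dab1 earlier, at 103619359, so both Dab1 matches shown here fell among the 141 exon bases and not before the gene. The 250 bases before the other Dab1 start site lay inside the annotated gene and held 1 match. Lrp8 has 3 start sites in the table, and the 250 bases before the outermost held 0 matches and those before the last held 1. A match is a run of letters and not a measured binding site. The RNA values of the same 3 genes are given next.

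Values are FPKM, which scale read numbers for transcript length and library size, so that levels of different genes can be set side by side. Differences were tested on log2(FPKM + 1) with limma over 13612 loci with 1 FPKM or more in 3 or more libraries, all 9 genes among them. Library sums lay between 497542 and 524474 FPKM, and read depth was not stated in the sources at hand. The deleted gene was lower in cKO: Zeb2 stood at 11.4, 9.52 and 7.995 FPKM in controls 1, 2 and 3 and at 6.19, 3.89 and 5.81 FPKM in cKO 1, 2 and 3. Its locus also carries the symbol Mir5129. The groups did not overlap, yet Zeb2 missed the threshold (limma adjusted p = 0.107). The log2 fold change was -0.77 (95% interval -1.19 to -0.35). The X-linked RNA Xist was at 0.331 to 0.515 FPKM in the controls and 142 to 147.5 FPKM in cKO, and 4 of 4 Y-linked genes went the other way, so the sex of the animals and their genotype cannot be told apart here. The lowest FPKM values split the libraries into 2 processing sets by their step sizes, control 1 with cKO 3 and the other 4 together. The library cKO 3 correlated at a Pearson r across loci of 0.953, 0.950 and 0.956 with controls 1, 2 and 3 and of 0.952 with both cKO 1 and cKO 2, so it was no nearer to its own group than to the controls.

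None of the 9 genes differed between control and cKO cerebellum beyond the spread of the libraries. Over all loci tested, 78 of 13612 (0.573%) passed at a limma adjusted p of at most 0.05, and 0 of the 9 genes did. Before adjustment 17.6% of the loci and 0 of the 9 genes had a limma p under 0.05. The mean level in cKO was between 92.3% (Crk) and 106.2% (Dab1) of the control mean. The log2 fold changes had a median of 0.05, against -0.0095 over all loci, with 5 above and 4 below 0. Their median size without regard to sign was 0.06, against 0.09 over all loci. Of the 95% intervals, the lowest reached -0.35 (Crk) and the highest 0.27 (Lrp8), or 0.787 and 1.21 as folds. Each interval is for a single gene and rests on the spread of these libraries. It bounds the difference between these groups, in which sex and genotype cannot be told apart, and not an effect of Zeb2 alone. Adjusted p-values ran from 0.477 to 0.919 (limma, n = 3 against 3). Being bulk tissue, these data cannot tell fewer cells of a type from less RNA per cell.

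**Figure D1:**
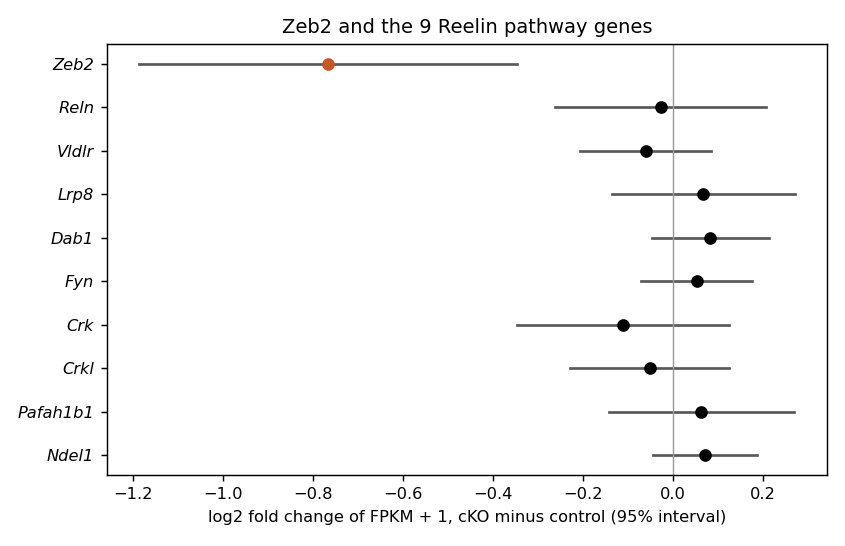
Log2 fold change of FPKM + 1, cKO minus control, for Zeb2 and the 9 Reelin pathway genes (points), with the 95% interval of the limma fit (lines; 3 libraries a group). The intervals of all 9 genes span 0, and that of Zeb2 runs from -1.19 to -0.35.

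No difference in the ligand was found. Reln (GRCm38 chromosome 5, 21884454 to 22344702, minus strand) was at 63.6, 76.0 and 62.9 FPKM in controls 1, 2 and 3 and at 62.3, 73.6 and 62.6 FPKM in cKO 1, 2 and 3. The groups overlapped, although cKO 1 and cKO 3 lay just below the lowest control and control 2 lay above all cKO libraries. The 2 high values were the libraries numbered 2 in each group. Means were 67.5 ± 7.39 and 66.2 ± 6.43 FPKM (SD, n = 3 each), and the log2 fold change was -0.03 (SE 0.10, 95% interval -0.26 to 0.21, limma adjusted p = 0.919). That both libraries numbered 2 lay above the other 4 was also the case at 6.73% of the loci tested. The sign turned with the libraries included: the log2 fold change was 0.06 without control 2, 0.014 without cKO 1 and 0.010 without cKO 3.

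Of 9 markers of the granule lineage, which makes Reelin, 1 passed and was lower in cKO (Mfap4, a microfibril-associated protein; limma adjusted p = 0.0235), and each of the 9 had a log2 fold change below 0. Groups were apart in 2 of the 9, against 23.9% of all loci. Before adjustment 3 had a limma p under 0.05, against 17.6% of all loci. The 9 markers summed to 766 to 872 FPKM in the controls and 667 to 749 FPKM in cKO. Without Mfap4, left out after its values were seen, the sums overlapped, at 711 to 798 FPKM in the controls and 652 to 733 FPKM in cKO. Atoh1, the transcription factor of granule progenitors, was at 13.4, 10.1 and 12.5 FPKM in controls 1, 2 and 3 and at 6.46, 8.44 and 11.1 FPKM in cKO 1, 2 and 3, with overlapping groups. Markers of glutamatergic nuclei and unipolar brush cells summed to 61.3 to 66.1 FPKM in the controls and 57.0 to 73.9 FPKM in cKO, with 3 of 6 above 0 and none past the threshold. The part of these cell types in the level of Reln was not tested.

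No difference was found in the receptors either. Vldlr (chromosome 19, 27216484 to 27254231, plus strand) was at 24.4, 22.7 and 22.6 FPKM in controls 1, 2 and 3 and at 23.6, 21.0 and 22.1 FPKM in cKO 1, 2 and 3. Its groups overlapped, with a log2 fold change of -0.06 (SE 0.06, 95% interval -0.21 to 0.09, limma adjusted p = 0.662). Lrp8 (chromosome 4, 107802261 to 107876840, plus strand) was at 34.5, 40.1 and 41.6 FPKM in controls 1, 2 and 3 and at 40.9, 43.2 and 37.7 FPKM in cKO 1, 2 and 3. The control values held the lowest of the 6, and the groups overlapped (log2 fold change 0.07, SE 0.09, limma adjusted p = 0.725). Without control 1 the log2 fold change of Lrp8 was -0.011.

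Lrp8 was the more abundant receptor transcript in each of the 6 libraries. The ratio of Vldlr to Lrp8 FPKM was 0.708, 0.565 and 0.543 in controls 1, 2 and 3 and 0.578, 0.486 and 0.587 in cKO 1, 2 and 3. The log2 ratio differed by -0.13 between the groups (exact two-sided permutation test, p = 0.6, where 3 against 3 can give no less than 0.1). The difference was -0.015 without control 1 and -0.045 without cKO 2.

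Dab1, the adaptor that carries the signal from both receptors, had the largest log2 fold change among the 5 above 0. It lies on the same chromosome as Lrp8 (chromosome 4, 103619359 to 104744844, plus strand). Its values were 44.5, 43.2 and 42.7 FPKM in controls 1, 2 and 3 and 49.1, 45.2 and 44.2 FPKM in cKO 1, 2 and 3. Control 1 lay above cKO 3, so the groups overlapped, and cKO 1 was the highest library. The log2 fold change was 0.08 (SE 0.05, 95% interval -0.05 to 0.21, limma adjusted p = 0.477), and 0.04 without cKO 1. Markers of Purkinje cells, the main cells that use Dab1 in the cerebellum, summed to 722 to 738 FPKM in the controls and 776 to 830 FPKM in cKO. Without Pcp4, a calmodulin-binding protein that held more of the sum than the other 8 together, the sums just overlapped, at 307 to 335 FPKM in the controls and 334 to 386 FPKM in cKO. Pcp4 was left out after the values were seen. Of the 9 Purkinje markers 8 had positive log2 fold changes (median 0.16) and none passed the threshold. Groups were apart in 6 of the 9, against 23.9% of all loci. A limma p under 0.05 before adjustment was found for 5, against 17.6% of all loci. Lhx5 was among both and went the other way (log2 fold change -0.27). The part of Purkinje cells in the level of Dab1 was not tested.

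Fyn, the kinase that phosphorylates Dab1 (chromosome 10, 39368855 to 39565381, plus strand), varied little. It was at 82.0, 83.5 and 81.1 FPKM in controls 1, 2 and 3 and at 81.7, 89.6 and 84.9 FPKM in cKO 1, 2 and 3. Its highest value was 1.11 times its lowest, and the groups overlapped (log2 fold change 0.05, SE 0.05, limma adjusted p = 0.640).

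No difference was found in the adaptors Crk and Crkl, related proteins with SH2 and SH3 domains. Crk (chromosome 11, 75679259 to 75706908, plus strand) was at 28.0, 22.8 and 23.99 FPKM in controls 1, 2 and 3 and at 22.7, 20.9 and 25.5 FPKM in cKO 1, 2 and 3. Crkl (chromosome 16, 17451987 to 17487434, plus strand) was at 26.04, 22.2 and 21.96 FPKM in controls 1, 2 and 3 and at 22.8, 21.7 and 23.0 FPKM in cKO 1, 2 and 3. In both genes the 2 highest libraries were control 1 and cKO 3, which form 1 processing set, as at 11.3% of all loci. The log2 fold changes were -0.11 for Crk (SE 0.10, limma adjusted p = 0.618) and -0.05 for Crkl (SE 0.07, limma adjusted p = 0.768). With the other processing set alone they were -0.098 and 0.0091. The ratio of Crk to Crkl was 1.08, 1.02 and 1.09 in the controls and 0.994, 0.965 and 1.11 in cKO, so the paralogs were about equally abundant in all 6 libraries (exact two-sided permutation test of the log2 ratio, p = 0.4).

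**Figure D2:**
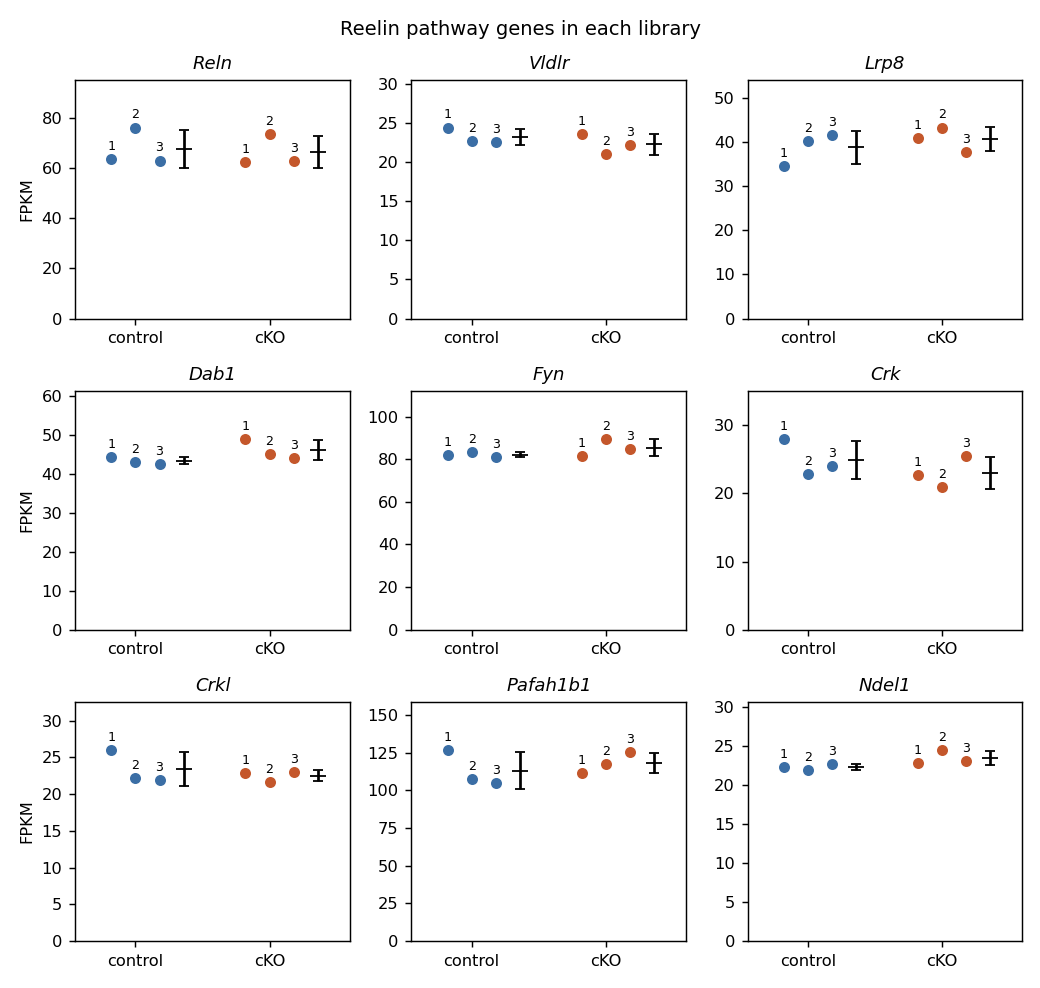
FPKM of each gene in the 3 control (blue) and 3 cKO (orange) libraries, with the number of the library over each point and the group mean ± SD in black; every axis starts at 0. The groups overlap in 8 of the 9 genes, and in Ndel1 the cKO libraries sit just above the controls.

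Pafah1b1, which encodes the dynein regulator LIS1, was the most abundant of the 9 in each library. It lies on chromosome 11 (74673949 to 74724670, minus strand), as do Crk and Ndel1. It was at 127, 107.8 and 104.9 FPKM in controls 1, 2 and 3 and at 111.6, 117 and 125 FPKM in cKO 1, 2 and 3. Again control 1 and cKO 3 were the 2 highest libraries, and the groups overlapped (log2 fold change 0.06, SE 0.09, limma adjusted p = 0.750). Within the larger processing set the log2 fold change was 0.11, with both cKO values above both control values. In the 4 libraries left without control 3 and cKO 3 it was -0.031.

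Ndel1 was the only 1 of the 9 genes whose groups did not overlap. This LIS1 partner (chromosome 11, 68821434 to 68871858, minus strand) was at 22.3, 21.9 and 22.6 FPKM in controls 1, 2 and 3 and at 22.8, 24.5 and 23.1 FPKM in cKO 1, 2 and 3. The lowest cKO library stood just above the highest control. The log2 fold change was 0.07 (SE 0.05, 95% interval -0.04 to 0.19, limma adjusted p = 0.497), and p = 0.1 by exact permutation (two-sided), the smallest that 3 against 3 allow. Groups did not overlap at 23.9% of all loci tested, so 1 gene of 9 is not above that background.

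In some of the 9 genes the libraries differed from each other in ways that both genotypes shared. Crk, Crkl and Pafah1b1 had both libraries of the smaller processing set above the other 4. Lrp8 had both of them below the other 4 (36.1 against 41.5 FPKM on average), as had 9.86% of all loci. Each set holds both genotypes in equal number, and with the set as a covariate none of the 9 passed (limma adjusted p = 0.273 to 0.898). What the sets stand for was not stated in the labels, and their part in these levels was not tested. The pooled SD of log2 values within groups ran from 0.04 (Ndel1) to 0.14 (Crk and Reln), and that of Ndel1, Fyn and Dab1 exceeded the SD of only 5.96%, 11.4% and 19.2% of all loci tested.

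**Figure D3:**
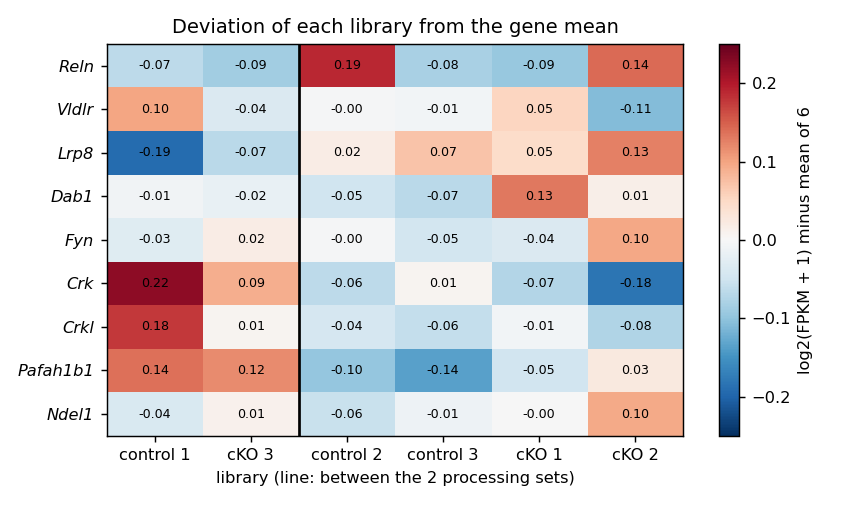
Deviation of log2(FPKM + 1) in each library from the gene's mean over 6 libraries, with the smaller processing set (control 1 and cKO 3) left of the line; red is above and blue below the mean. Crk, Crkl and Pafah1b1 are positive in both libraries left of the line, and Reln is positive in control 2 and cKO 2.

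The order of the levels was steady at the top and unresolved at the bottom. By mean FPKM over 6 libraries (± SD), Pafah1b1 (115.6 ± 9.13) was followed by Fyn (83.8 ± 3.19), Reln (66.9 ± 6.24), Dab1 (44.8 ± 2.29) and Lrp8 (39.7 ± 3.12), in the same order in each library. Dab1 and Lrp8 overlapped in range. Crk (23.99 ± 2.50), Crkl (22.96 ± 1.59), Ndel1 (22.9 ± 0.888) and Vldlr (22.7 ± 1.18) changed places from library to library and did not differ beyond their spread. All 9 were well expressed: the lowest mean, that of Vldlr, exceeded 68.3% of the loci tested.

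The loci whose pattern over the 6 libraries was most like that of Reln were Polr2h, Pip5k1a, Zcrb1, Phldb1 and Rufy2, with Pearson r of 0.979 to 0.994 among 11459 loci compared. Polr2h, a subunit of RNA polymerases, was also highest in the libraries numbered 2, at 38.5 FPKM in control 2 and 37.3 FPKM in cKO 2 against 33.8 to 34.4 FPKM in the other 4. Among the loci nearest to Dab1 were Zdhhc9, Adcy1, Map2 and Cd47 (r of 0.984 to 0.989). Adcy1, a neuronal adenylyl cyclase, was highest in cKO 1 at 54.1 FPKM, the library in which Dab1 was highest, against 44.3 to 48.9 FPKM in the other 5. These r values describe 6 libraries, and with so few points 70 loci exceeded 0.9 for Reln and 136 for Dab1.

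Beyond the 9, 65 further genes of the pathway were grouped by role into 4 lists, and all 65 were tested. None passed over all loci (limma), 14 had a p under 0.05 before adjustment (17.6% of all loci had), and the median log2 fold change was 0.01, with 34 above and 31 below 0. With the 230 loci of small RNAs left out of the fit, where 2.43% of loci passed, 2 of the 65 passed: Plat was higher and Nde1 lower.

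**Figure D4:**
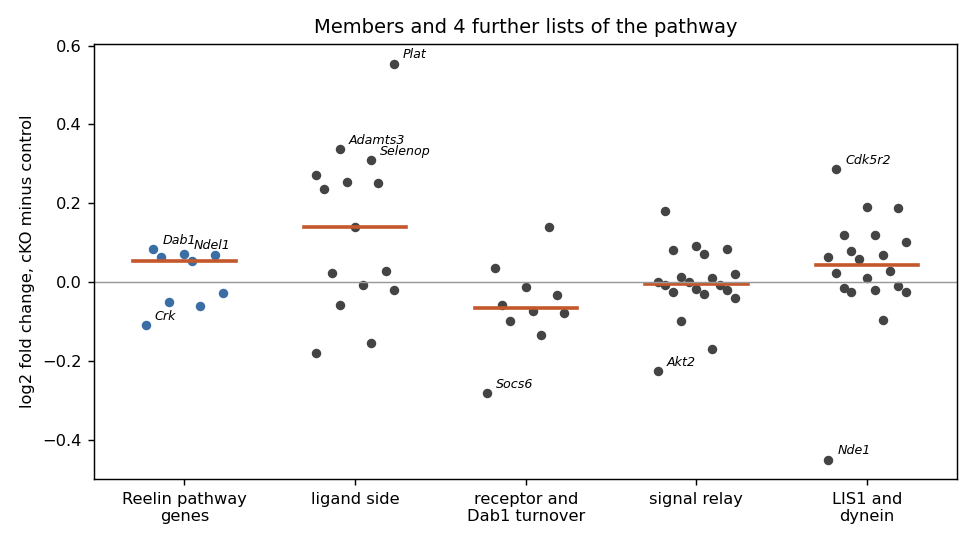
Log2 fold change, cKO minus control, of the 9 Reelin pathway genes (blue) and of the genes in 4 further lists (grey), with the median of each list as an orange line. The 9 genes lie between -0.11 and 0.08, while Plat (0.55) and Nde1 (-0.45) lie farthest from 0 in the further lists.

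On the ligand side (proteases that cleave Reelin, other ligands of its receptors, candidate co-receptors), 10 of 15 genes lay above 0 and 5 below (median log2 fold change 0.14). Of these 15 genes, 8 had a limma p under 0.05 before adjustment, against 17.6% of all loci, and so made up 8 of the 14 such genes. Of the 8, 7 were above 0 (Plat, Selenop, Adamts3, Itga3, Efnb2, Thbs1 and Efnb1) and 1 below (Clu). The list was chosen with earlier results of these data known, so its counts are a description and not a test. Groups were apart in 7 of the 15 genes, against the 23.9% of all loci. Plat, the tissue plasminogen activator, was at 41.7, 38.7 and 44.7 FPKM in controls 1, 2 and 3 and at 64.5, 70.1 and 51.5 FPKM in cKO 1, 2 and 3. All cKO libraries lay above all controls, and cKO 3 was nearest to them (log2 fold change 0.55, SE 0.12, limma adjusted p = 0.0904, 0.0372 without the small-RNA loci and 0.0474 without cKO 3). Selenop, a selenium carrier that binds Lrp8 and is named Sepp1 in the table, had means of 49.2 ± 3.15 and 61.1 ± 3.48 FPKM (SD, n = 3 each; limma adjusted p = 0.0946). Adamts3, a protease that inactivates Reelin, had means of 5.74 ± 0.338 and 7.56 ± 1.07 FPKM (limma adjusted p = 0.168). Neither of these overlapped between the groups, and neither passed. Of 6 microglia markers 1 passed and was higher in cKO (Csf1r, the receptor for colony stimulating factor 1; limma adjusted p = 0.0483), and all 6 lay above 0 with groups apart. Of 7 meningeal fibroblast markers none passed, although all 7 lay above 0, and groups were apart in 2. Without the small-RNA loci, 3 microglia markers and 1 meningeal marker passed, all higher in cKO. The microglial sum was 27.5 to 28.4 FPKM in the controls and 36.8 to 40.0 FPKM in cKO, the meningeal sum overlapped at 7.05 to 27.1 and 16.3 to 61.2 FPKM, and none of these markers was at 0 in all libraries. Their part in the ligand-side values was not tested.

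Among 10 genes of receptor trafficking and Dab1 turnover, 2 were above and 8 below 0 (median -0.07). Socs6, a SOCS-box protein of ubiquitin ligases, had the smallest p, with means of 8.04 ± 0.171 and 6.45 ± 0.421 FPKM and groups apart (log2 fold change -0.28, limma adjusted p = 0.102). Cul5, the cullin of the ligase that degrades activated Dab1, was at 12.4 ± 0.684 and 11.8 ± 0.962 FPKM with overlapping groups. Cbl, an enzyme of ubiquitin transfer, and Ube2f had log2 fold changes of 0.14 and -0.10.

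Among 20 genes of the relay downstream of Dab1, 9 were above and 11 below 0 (median -0.0038). Akt2, a kinase downstream of PI3-kinase, was at 55.3 ± 2.65 and 47.2 ± 2.91 FPKM (limma adjusted p = 0.156), and Pik3cb, a PI3-kinase catalytic subunit, at 4.29 ± 0.0657 and 4.998 ± 0.126 FPKM (limma adjusted p = 0.187). Src, the kinase that shares Dab1 with Fyn, was at 35.1 ± 1.01 and 37.0 ± 3.75 FPKM with overlapping groups. Yes1, a further Src family kinase, had a log2 fold change of -0.17 (limma adjusted p = 0.340).

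Among 20 genes of LIS1, Cdk5 and dynein, 13 were above and 7 below 0 (median 0.04). Nde1, the close relative of Ndel1 that also binds LIS1 and dynein and is known from dividing progenitors, was at 22.4, 25.1 and 23.0 FPKM in controls 1, 2 and 3 and at 16.5, 18.4 and 15.9 FPKM in cKO 1, 2 and 3. Every cKO library lay below every control, at 72.1% of the control mean. The log2 fold change was -0.45 (SE 0.07, 95% interval -0.62 to -0.28, limma adjusted p = 0.0645, and 0.0256 without the small-RNA loci). The ratio of Nde1 to Ndel1, a pair singled out after the values were seen and therefore not tested, was 1.01, 1.14 and 1.02 in the controls and 0.724, 0.752 and 0.690 in cKO. Cdk5r1 and Cdk5r2, the activators p35 and p39 of the neuronal kinase Cdk5, had log2 fold changes of 0.19 and 0.29 with groups apart (limma adjusted p = 0.220 and 0.171).

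**Figure D5:**
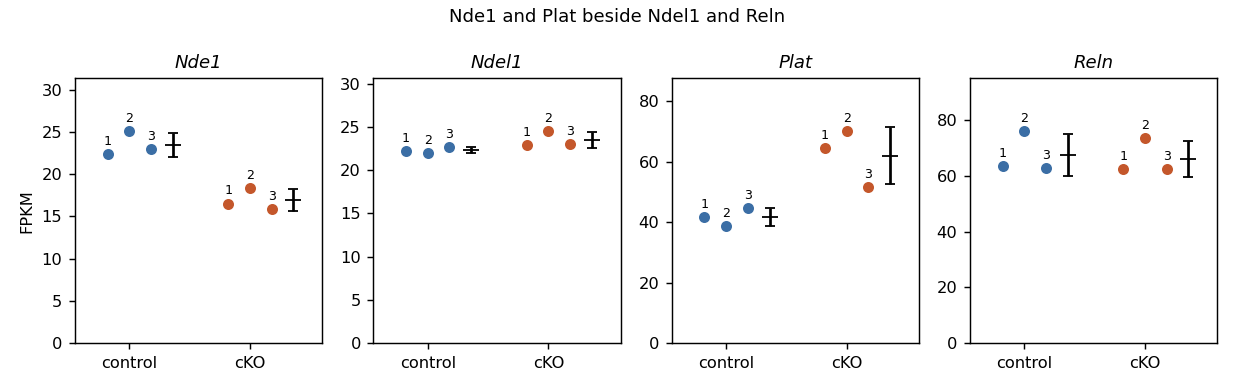
FPKM of Nde1 and Plat beside Ndel1 and Reln in the 3 control (blue) and 3 cKO (orange) libraries, with library numbers over the points and the group mean ± SD in black; every axis starts at 0. Nde1 is below and Plat above the controls in each cKO library, while Reln overlaps.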

How the data were processed

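The 6 cerebellar libraries (3 control, 3 cKO) were made from total RNA with a TruSeq kit, per the labels. CASAVA, TopHat and Cufflinks and build mm10 stand in the submitters' processing notes, and the table that the authors deposited was taken to hold FPKM per locus. The unit was inferred from Cufflinks and the values, since no label names it. Tool versions, annotation and strand setting were not stated. Columns were matched to samples by title; the description of cKO 1 carries the number 3.

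Values were taken as log2(FPKM + 1), and the 13612 of 23793 loci reaching 1 FPKM in 3 or more libraries were fitted with limma 3.58.1 (R 4.3.3, trend, two-sided, Benjamini-Hochberg over all loci, threshold 0.05), after a check on simulated data. Single ratios were tested by exact permutation. Processing sets were read from ratios of values under 0.1 FPKM: 7 of the 15 library pairs had 24.2 to 32.9% of loci in a window of 0.06 log2 units, the other pairs 7.35 to 8.90%. The members and lists were chosen with earlier results of these data known. Named in the text are the 9 genes, Zeb2, any list gene past the threshold and the 3 of each pathway list with the smallest p, and the 5 loci most like Reln and Dab1 (mean of at least 2 FPKM), of which 1 is not reported here; Atoh1, Cul5, Src, Pcp4, Thbs1, Itga3, Efnb1, Efnb2, Clu and Xist were named besides, and the 4 Y-linked genes past the threshold are given as a count. Microglial, meningeal, granule, Purkinje and nuclear markers are given in the report. Bergmann glia markers (9 genes, 3 above 0, and Gpr37l1 past the threshold and lower) summed to 2180 to 2254 FPKM in the controls and 1965 to 2122 in cKO. Endothelial markers (6 genes, 5 above 0, none past the threshold) summed to 55.2 to 64.8 and 63.9 to 68.8 FPKM. Alternatives were the replicate number as a block, covariates, other pseudocounts, filters, scalings, variance models, a threshold of 0.1 and libraries left out; the larger processing set alone was added after seeing the data. Coordinates are those of GENCODE M21 (GRCm38) and start sites those of RefSeq (GRCm38.p6). In GENCODE, Reln shares 246 exonic bases (1.04%) with an antisense gene model, and the other 8 share none with another gene. Figures were drawn with matplotlib 3.10.9.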

Additional observations from a re-analysis of the deposited data

How the results depend on the processing

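In 207 fits of the 9 genes under 23 alternatives, 0 passed the threshold (lowest adjusted p = 0.273, Crk with a term for the processing set); log2 fold changes lay between -0.21 and 0.17. By construction 9 alternatives (the block, covariates, choices of loci and variance models) cannot move a fold change; of the 126 fits under the others, 119 kept the sign and 7 did not. Signs turned for Crkl in the larger processing set alone (0.0091), for Pafah1b1 in the first accession block alone, that is without control 3 and cKO 3 (-0.031), and with 1 library left out for Reln (-0.105 to 0.0605), Lrp8 (-0.011 to 0.12) and Crkl (-0.093 to 0.025). With 1 library left out, the log2 ratio difference lay between -0.21 and -0.015 for Vldlr to Lrp8 and between -0.12 and -0.021 for Crk to Crkl. The titles share numbers across groups, and the deviations of same-numbered libraries correlated at -0.027, 0.037 and 0.049. These values cannot settle whether the numbers pair the libraries, since those numbered 1 and those numbered 3 lie in different processing sets. With the replicate number as a block, 0 of the 9 genes passed, and 15 loci passed (4 higher, 11 lower). Reln then had a limma adjusted p of 0.832, and its log2 fold change of -0.027 cannot move under the block.

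The number of loci past the threshold, 78 (33 higher, 45 lower), was 22 (8, 14) with the accession block as a covariate, 30 (8, 22) in the larger processing set alone, 325 (128, 197) without small-RNA loci, 28 (12, 16) without a filter, 30 (8, 22) at a mean of at least 5 FPKM, 336 (130, 206) with robust variance and 409 (158, 251) at a threshold of 0.1. With 1 library left out it was 21 to 55 (7 to 29 higher, 13 to 28 lower). Of the 65 further pathway genes 0 passed, but 2 did without small-RNA loci, 3 with robust variance, 3 at a threshold of 0.1 and 0 to 1 with 1 library left out (Plat without cKO 3). Zeb2 passed without small-RNA loci (log2 fold change -0.77, adjusted p = 0.0466). The causes were not tested. Depth is not given, which limits the precision of low values, and 3 libraries a group limit what could be seen to the intervals given above.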
